A study of Homo sapiens with 6 samples.

Results

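The matrix metalloproteinases (MMPs), the membrane-bound and secreted ADAM and ADAMTS proteases and their tissue inhibitors (TIMPs) were followed in an adrenocortical carcinoma cell line and in a subpopulation sorted from it. Genes were taken by symbol from the deposited count table, as MMP, ADAM, ADAMTS or TIMP followed by a number (and, for MMPs, one optional letter). This gave 69 of the 57341 named genes, namely 24 MMP, 22 ADAM, 19 ADAMTS and 4 TIMP genes. RNA was sequenced from 3 replicates labelled H295R, the parental human adrenocortical carcinoma line, and from 3 replicates labelled as its Ptch1 positive subpopulation (H295R-PM-Ptc+), cells that were sorted from H295R by flow cytometry for plasma-membrane Ptch1, the Hedgehog receptor, and expanded in culture. Both were grown without treatment in the same medium, and the study describes no transgene or engineered deletion in either. One sorted and amplified population stands for the subpopulation, and nothing in the labels says that the replicates came from separate cultures, so the p-values measure the spread between these libraries only.

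These families act at the cell surface or in the extracellular matrix. MMPs are zinc-dependent endopeptidases that cut collagens, laminins, proteoglycans and other proteases, and most are kept inactive by a propeptide. ADAMs shed the extracellular part of membrane proteins, such as growth factor precursors and Notch, while ADAMTS proteases are secreted and process proteoglycans, procollagens and von Willebrand factor. TIMPs bind the active site of these enzymes, TIMP3 being the one that is held in the matrix and that inhibits the widest range of ADAM and ADAMTS proteases.

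PTCH1, the gene of the sorted receptor, had 18.5, 22.0 and 23.4 CPM (edgeR's depth-normalised counts, over TMM-scaled library sizes) in the parental-labelled libraries and 9.70, 13.1 and 13.8 in the Ptc+-labelled ones. It was thus lower where the label says that the receptor was selected (log2 fold change -0.81, standard error 0.147, edgeR adjusted p = 0.0207). The adjusted p of PTCH1 was 0.0799 without parental-labelled replicate 2, 0.0921 without parental-labelled replicate 3 and 0.0618 without Ptc+-labelled replicate 2. The normalized values published with the study carry both group names the other way round for the same libraries. Under those names PTCH1 is higher where the receptor was selected. Which naming is right was not tested. The libraries are therefore called parental-labelled and Ptc+-labelled after their deposited labels, every log2 fold change is Ptc+-labelled over parental-labelled, and all directions turn if the labels are exchanged. Each library held 23264403 to 25813247 counted fragments. Of 10 adrenocortical markers, 9 had over 3 counts in a library, with a summed level of 969 to 1240 CPM in the parental-labelled libraries and 1040 to 1330 in the others. CYP11B1 was the exception, with at most 3 counts. CYP21A2, the steroid 21-hydroxylase gene, which has a near-identical pseudogene copy, was the one called, at 12.8 ± 2.19 against 23.5 ± 1.43 CPM (log2 fold change 0.88, edgeR adjusted p = 0.00670). STAR, another of the 10, measured 298 ± 71.1 against 397 ± 103 CPM (log2 fold change 0.41, edgeR adjusted p = 0.346). With the replicate number as a block in the fit, the adjusted p of STAR was 3.91e-06. Among 8 fibroblast markers LUM was listed at 0, and the summed level was 31.5 to 34.3 against 75.6 to 79.8 CPM. Most of that sum was COL3A1, at 23.3 ± 0.797 against 66.5 ± 2.56 CPM, and 3 of the 8 markers were tested, of which COL3A1 and THY1 (0.690 ± 0.0751 against 1.69 ± 0.247 CPM) were higher in the Ptc+-labelled libraries. THY1 rested on 15 to 45 counts per library. Its edgeR adjusted p was 0.06785 without parental-labelled replicate 2 and 0.0907 without parental-labelled replicate 3. It was 0.0787 without Ptc+-labelled replicate 2 and 0.0816 without Ptc+-labelled replicate 3. The part of such marker genes in the results below was not tested. Endothelial markers summed to 0.197 to 0.335 against 0.509 to 0.648 CPM, immune markers to 0.85 to 1.42 against 1.73 to 2.03 CPM and chromaffin markers to 0.787 to 0.809 against 1.04 to 1.53 CPM, with PTPRC, CD68, DBH and PNMT listed at 0. In bulk RNA a smaller share of cells and less RNA per cell cannot be told apart.

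Of the 69 members, 33 had enough counts to be tested, and these were unevenly spread over the classes. By edgeR's filterByExpr, 8 of 12 ADAMs with a catalytic site, 5 of 6 membrane-type MMPs, 5 of 7 proteoglycan-cleaving ADAMTS genes and 3 of 4 TIMPs passed. None of the 3 collagenases and 1 of 5 stromelysins and matrilysins did. The gelatinase MMP2 passed, while MMP9, the other gelatinase, had 1, 1 and 3 counts in the parental-labelled libraries and 2, 3 and 7 in the Ptc+-labelled ones. The 10 members listed at 0 in every library were ADAM2, ADAM5, ADAM6, ADAM29, ADAM30, ADAMTS5, ADAMTS10, MMP3, MMP26 and MMP27, for which a count of 0 allows up to 3 counts per library, or 0.116 to 0.129 CPM. ADAM5 and ADAM6 are annotated as pseudogenes in the GENCODE reference, ADAM6 also as a long noncoding RNA, and MMP23A, which was counted, is a pseudogene there too. A further 26 members were counted but did not pass the filter, at 1 to 15 counts in their highest library. These were ADAM7, ADAM12, ADAM18, ADAM20, ADAM32, ADAM33, ADAMTS2, ADAMTS8, ADAMTS12, ADAMTS16, ADAMTS17, MMP1, MMP7, MMP8, MMP9, MMP10, MMP12, MMP13, MMP19, MMP20, MMP21, MMP23A, MMP23B, MMP25, MMP28 and TIMP4. At this depth a difference between the groups was not detectable in any of them. MMP23A and MMP23B overlap on the same strand and are near copies, so their reads could not be assigned with certainty.

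**Figure D1:**
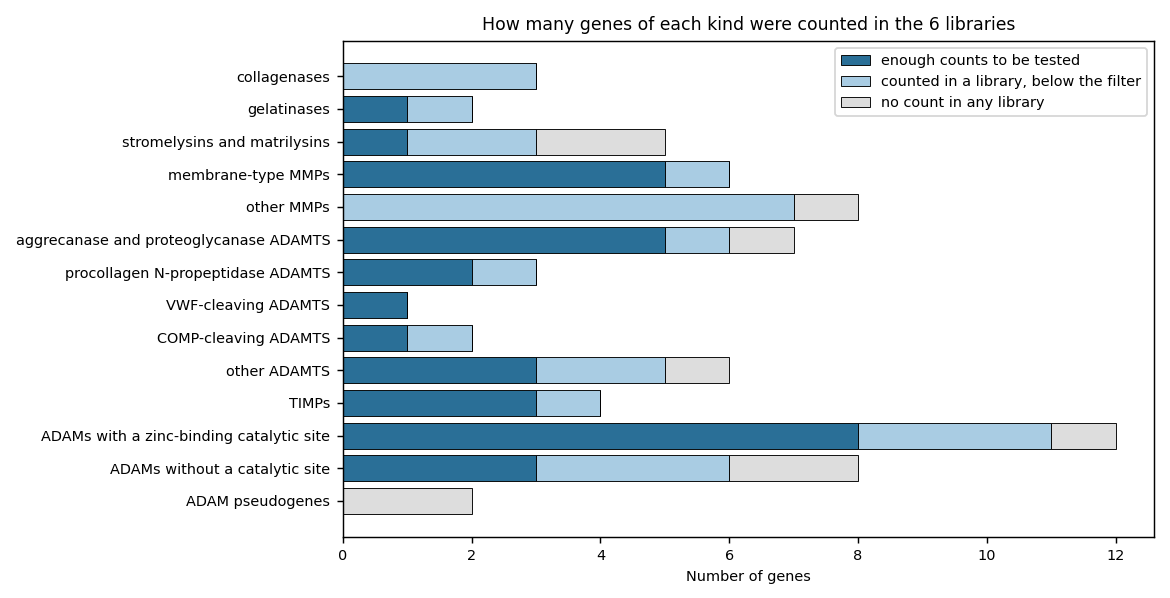
Number of genes (horizontal axis) in each class of the protease and inhibitor families, split by whether a gene had enough counts for the test, was counted below the filter, or had no count in any of the 6 libraries. All 3 collagenases lie below the filter, while 5 of 6 membrane-type MMPs and 8 of 12 catalytic ADAMs were tested.

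The MMPs that were not tested include a whole stretch of the genome. MMP7, MMP20, MMP27, MMP8, MMP10, MMP1, MMP3, MMP12 and MMP13 lie within 435 kb at chr11:102520508-102955734 (hg38), and together these 9 genes drew 27 counts over all 6 libraries. The highest single value among them was 4 counts, of the interstitial collagenase MMP1, in parental-labelled replicate 3. Neighbouring ADAMTS genes also differed in level. ADAMTS5, an aggrecanase, was listed at 0, whereas ADAMTS1, which lies in the same 131 kb on chromosome 21, held 118 to 226 counts per library. On chromosome 11, ADAMTS8 had at most 4 counts and the adjacent ADAMTS15 had 8 to 35. The disintegrin genes from ADAM9 to ADAM2 on chromosome 8 span 841 kb, and there ADAM9 held 2804 to 3779 counts per library while ADAM32, ADAM5, ADAM18 and ADAM2 had at most 13.

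The sequence upstream of the gene start was described for tested members and for members that were not tested, some of which had low counts in every library. RefSeq promoter windows (build GRCh38.p14) were matched by symbol for 39 of the 69 members, of which ADAMTS10 has a pair of windows, making 40. In the 250 bases before the start, the observed over expected CpG ratio had a median of 0.73 in the 22 windows of tested members and of 0.44 in the 18 windows of members that were not tested. Over all genes the same medians were 0.78 for those tested and 0.30 for those not tested, a difference in the same direction. The AP-1 motif TGANTCA, which reads the same on both strands, was found in none of the 22 tested windows and in 4 of the 18 others, namely those of MMP7, MMP10, MMP20 and ADAMTS12. It was present in 4.35% of the windows of all tested genes, 8.94% of those of all untested genes and 6.57% of all 35116 promoter windows. TATAA, searched on the strand of the gene, was found in 2 tested windows (MMP11 and TIMP3) and in 7 of the 18 others, against 8.13% of the windows of all tested genes, 21.0% of those of all untested genes and 13.6% of all windows. A match to these letters is a description of the sequence, not a binding site.

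The 120 bases before the start are shown for MMP11, which differed between the groups, for MMP24 and MMP14, which differed once the replicate number was taken into account, for TIMP3, the most abundant member, and for MMP7 and MMP10, which were not tested. The start is that of RefSeq, which need not be the outer end of the gene in the counted annotation. For MMP11 the 120 bases lie inside the counted gene, which begins upstream at 23768226. Capitals mark CG dinucleotides and, in MMP7 and MMP10, also the AP-1 motif, whose first base lies at -67 in both.
MMP11 (chr22:23772729-23772848, plus strand): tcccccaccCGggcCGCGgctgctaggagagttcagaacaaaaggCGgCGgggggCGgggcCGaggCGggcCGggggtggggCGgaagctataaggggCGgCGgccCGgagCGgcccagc
MMP24 (chr20:35226570-35226689, plus strand): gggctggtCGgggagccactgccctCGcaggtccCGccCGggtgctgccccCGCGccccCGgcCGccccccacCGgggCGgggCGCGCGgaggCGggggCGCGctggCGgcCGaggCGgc
MMP14 (chr14:22836465-22836584, plus strand): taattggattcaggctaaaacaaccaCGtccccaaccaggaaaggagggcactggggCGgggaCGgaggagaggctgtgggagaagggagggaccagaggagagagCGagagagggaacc
TIMP3 (chr22:32801585-32801704, plus strand): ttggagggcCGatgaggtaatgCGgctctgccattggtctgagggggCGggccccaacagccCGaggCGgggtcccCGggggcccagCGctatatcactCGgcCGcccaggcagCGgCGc
MMP7 (chr11:102530748-102530867, minus strand): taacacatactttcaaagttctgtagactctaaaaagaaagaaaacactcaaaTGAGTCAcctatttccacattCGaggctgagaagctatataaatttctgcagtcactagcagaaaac
MMP10 (chr11:102780629-102780748, minus strand): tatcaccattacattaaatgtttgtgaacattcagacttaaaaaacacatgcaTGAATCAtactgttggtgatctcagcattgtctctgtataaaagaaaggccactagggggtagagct
MMP24 has 19 CG dinucleotides in these 120 bases, MMP11 14, TIMP3 11 and MMP14 4, against 1 in MMP7 and 0 in MMP10. A TATAA begins at -30 in MMP7 and at -31 in MMP10 and in MMP11, the stromelysin that passed the filter.

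**Figure D2:**
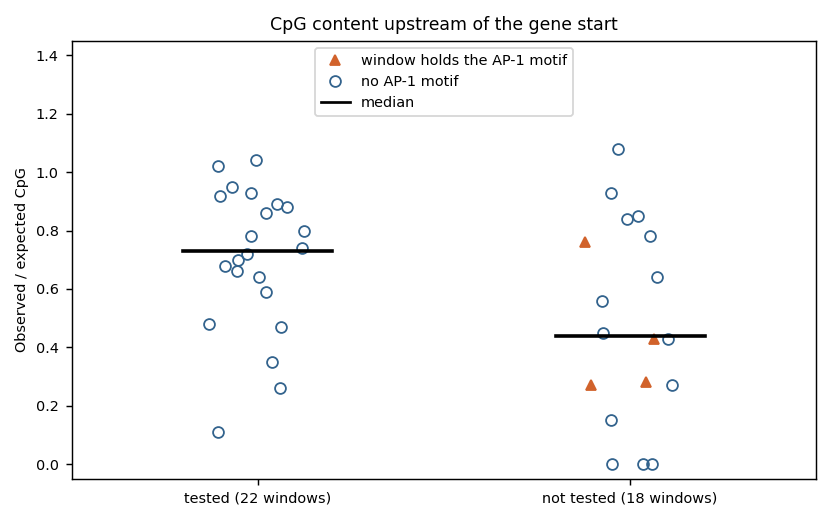
Observed over expected CpG ratio in the 250 bases before the gene start (vertical axis, no unit) for promoter windows of members that were tested and not tested, with the median of each as a bar. The medians are 0.73 and 0.44, and the triangles, windows with the AP-1 motif, occur among the members that were not tested.

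Levels per length spanned more than 3 orders of magnitude among the tested members, and an inhibitor led them. TIMP3 stood at 203 ± 18.1 CPM per kilobase of exon in the parental-labelled libraries and at 192 ± 1.00 in the Ptc+-labelled ones (SD, n = 3 each). Summed over all members the level per length was 370.0 and 372, of which TIMP3 alone held 54.8% and 51.6%. TIMP1 came next, at 36.9 ± 3.75 and 42.4 ± 4.07, and did not overlap with any lower member in mean ± SD. ADAM15, TIMP2 and ADAM9 followed at 21.3 ± 2.21, 18.3 ± 1.74 and 17.6 ± 0.536 CPM per kilobase in the parental-labelled libraries, and in the other libraries at 22.7 ± 1.27, 21.5 ± 0.197 and 21.2 ± 1.16, where the ranges of mean ± SD of ADAM15, TIMP2 and ADAM9 met. MMP14, the most abundant MMP, and ADAM17 were also close, at 16.2 ± 1.63 and 14.7 ± 0.926 CPM per kilobase in the parental-labelled libraries, and in the Ptc+-labelled ones their order was reversed, at 12.96 ± 0.128 and 14.6 ± 0.790. ADAM10, ADAM22 and MMP15 completed the first 10 by the mean over all 6 libraries, at 8.72 ± 1.24, 5.63 ± 0.143 and 3.81 ± 0.466 in the parental-labelled libraries, where ADAMTS9 stood above MMP15 at 4.33 ± 0.0996. Among MMPs the membrane-type class held 23.9 of a summed 26.0 CPM per kilobase in the parental-labelled libraries and 22.5 of 25.6 in the others.

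**Figure D3:**
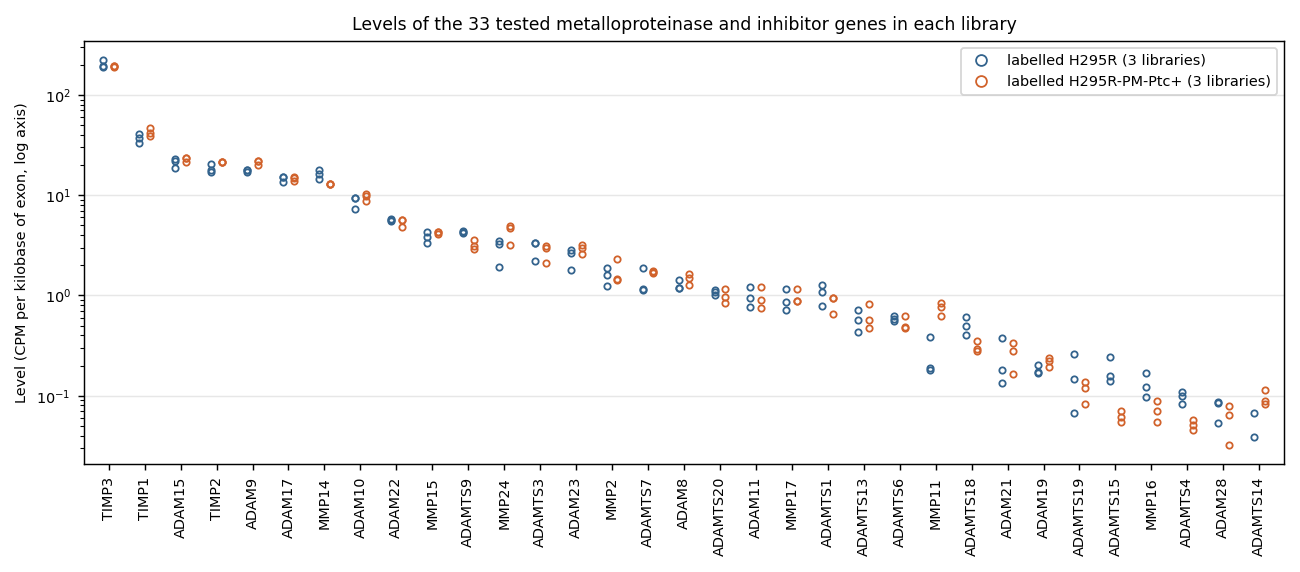
Level per kilobase of exon (CPM per kilobase, log axis) of each of the 33 tested members in the 6 libraries, ordered by the mean, with 1 point per library and the labelled groups in different colours. TIMP3 lies near 200 in all 6 libraries and most members lie under 10. parental-labelled replicate 1 had no count of ADAMTS14 and has no point there.

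Between the groups, 3 of the 33 tested members had an adjusted p under 0.05, MMP11 higher and ADAMTS9 and ADAMTS15 lower in the Ptc+-labelled libraries. These 3 are 9.09% of the members tested, where 3.73% of all 16710 tested genes were called, 2.42% of them higher and 1.32% lower. With the replicate number as a block 13 of the 33 were called, 7 higher and 6 lower, a share of 39.4% against 22.5% of all genes. An unadjusted p under 0.05 was reached by 10 of the 33 members, while 17.3% of all genes reached it, and 17 of the 33 lay above 0, as did 50.2% of all genes. The groups did not overlap in 10 of the 33 members (30.3%, against 23.5% of all tested genes), and for such a gene the exact permutation test gives a two-sided p = 0.1, which is as low as it can go with 3 libraries a group. The median log2 fold change of the tested members was 0.09, beside 0.001 over all genes, with a range from -1.52 in ADAMTS15 to 1.57 in MMP11.

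**Figure D4:**
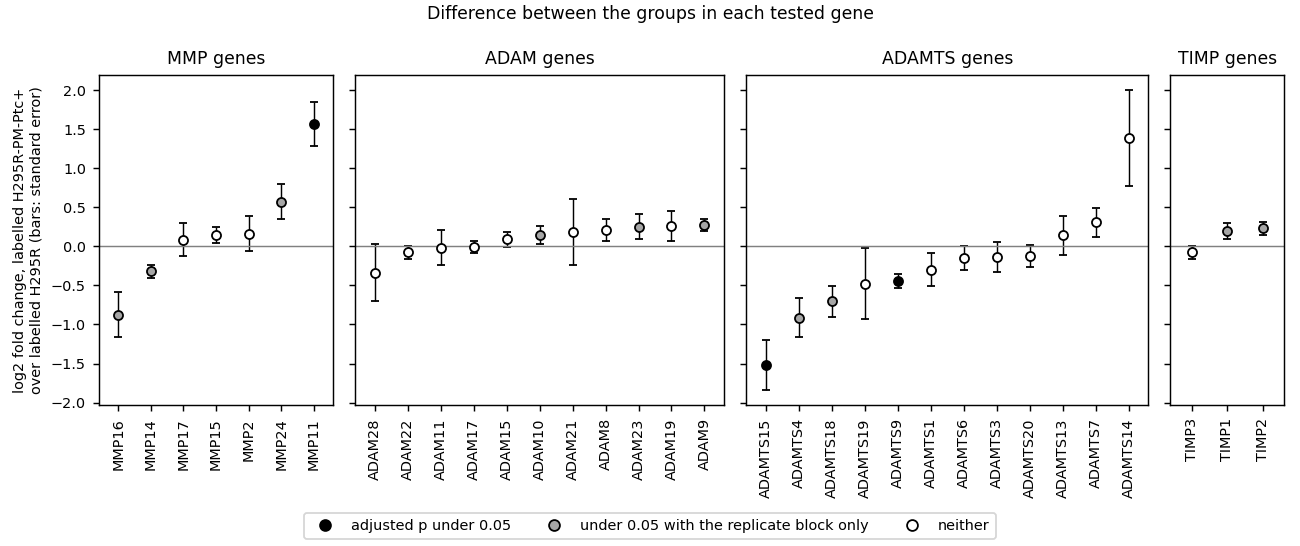
Log2 fold change of each tested member, Ptc+-labelled over parental-labelled, with the standard error from edgeR, in panels by family. Filled points have an adjusted p under 0.05 (MMP11, ADAMTS9 and ADAMTS15), grey points pass with the replicate block only (10 members) and open points do not pass.

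MMP11, or stromelysin-3, is a secreted MMP that is activated by furin inside the cell and is known from the stroma of carcinomas. It measured 2.01, 0.984 and 0.930 CPM in the parental-labelled libraries and 4.38, 3.22 and 4.02 CPM in the Ptc+-labelled ones. All 3 of the second group lay above all 3 of the first, and parental-labelled replicate 1 was the highest of its group. MMP11 rose 2.97-fold (log2 fold change 1.57, standard error 0.283, edgeR adjusted p = 0.0196), with differences of 1.13, 1.71 and 2.11 (log2) in replicates 1, 2 and 3. The adjusted p was 0.0852 without parental-labelled replicate 2, 0.0889 without parental-labelled replicate 3, 0.0548 without Ptc+-labelled replicate 1 and 0.0763 without Ptc+-labelled replicate 3. MMP11 lies at chr22:23768226-23784316 (hg38), and its 10 nearest tested neighbours had a median log2 fold change of -0.07 (range -0.85 to 0.11), none of them called. CHCHD10 covers 4.21% of the exon bases of MMP11 on the opposite strand and stood at -0.13 (adjusted p = 0.763). The other stromelysins and matrilysins, MMP3, MMP7, MMP10 and MMP26, held at most 3 counts in a library.

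Of 12 tested ADAMTS genes 2 were called (16.7%), both lower, and 9 lay below 0 and 3 above it. Of all tested genes 3.73% were called, 1.32% were called lower, and 50.2% lay above 0. ADAMTS15, a hyalectan-cleaving protease, measured 0.795, 1.38 and 0.890 CPM in the parental-labelled libraries and 0.313, 0.402 and 0.346 CPM in the others, with no overlap. It had a log2 fold change of -1.52 (SE 0.321, adjusted p = 0.0373) on 8 to 35 counts per library. Its neighbours on chromosome 11 had a median of 0.11 and 8 of 10 of them lay above 0, with 1 called. The call for ADAMTS15 held without parental-labelled replicate 1 and was lost without parental-labelled replicate 2 (adjusted p = 0.118), parental-labelled replicate 3 (0.0907), and Ptc+-labelled replicate 1 (0.106), 2 (0.112) or 3 (0.139). ADAMTS9, which cleaves versican and aggrecan, was the most abundant ADAMTS gene, at 45.1, 47.2 and 46.2 CPM against 38.3, 30.7 and 33.1 CPM. The groups lay apart and the parental-labelled libraries lay close together. ADAMTS9 had a log2 fold change of -0.44 (SE 0.0925, adjusted p = 0.0367). It is transcribed from the minus strand of chr3:64515654-64688000 (hg38), where the 10 nearest tested genes had a median of -0.04 and none was called. Its adjusted p was 0.117 without parental-labelled replicate 2, 0.118 without parental-labelled replicate 3, 0.144 without Ptc+-labelled replicate 2 and 0.147 without Ptc+-labelled replicate 3.

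All 5 tested members of the proteoglycan-cleaving ADAMTS class lay below 0, with a median of -0.44. ADAMTS4, aggrecanase-1, measured 1.13, 1.02 and 0.850 CPM in the parental-labelled libraries and 0.587, 0.523 and 0.475 CPM in the others, which is a log2 fold change of -0.91 (SE 0.249, adjusted p = 0.0878, and 0.0284 with the replicate block). The groups did not overlap, and the difference was between -0.97 and -0.84 in the 3 same-numbered pairs. ADAMTS1 and ADAMTS20, which also act on versican, stood at -0.30 (adjusted p = 0.530) and -0.12 (0.735), and their groups overlapped. Outside this class, ADAMTS18 measured 4.10, 3.31 and 2.71 CPM against 1.96, 2.37 and 1.86 CPM without overlap. It stood at -0.71 on the log2 scale (SE 0.200, adjusted p = 0.0978, and 0.00774 with the replicate block). ADAMTS13, the von Willebrand factor protease, overlapped between the groups at 0.14 (adjusted p = 0.842). The procollagen N-propeptidase ADAMTS14 had 0, 9 and 5 counts in the parental-labelled libraries and 12, 15 and 10 in the others (log2 fold change 1.39, standard error 0.618, adjusted p = 0.293). On these few counts the ADAMTS14 value was 0.84 without parental-labelled replicate 1, 2.23 without parental-labelled replicate 2 and 2.11 with limma-voom. ADAMTS3, of the same class, stood at -0.13 (adjusted p = 0.803), and ADAMTS7, ADAMTS6 and ADAMTS19 at 0.31, -0.15 and -0.48, none of them called. Without parental-labelled replicate 1 the adjusted p of ADAMTS7 was 0.0138. ADAMTS7 has pseudogene copies that can share its reads.

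Membrane-type MMPs are anchored at the cell surface and make up most of the MMP RNA of these cells. MMP14, which activates proMMP2 and cuts fibrillar collagen, measured 79.2, 64.7 and 72.6 CPM in the parental-labelled libraries and 58.3, 57.2 and 58.1 CPM in the Ptc+-labelled ones. The second group was tight and lay below the first in every library, at a log2 fold change of -0.32 (SE 0.0863, adjusted p = 0.0857). With the replicate block the adjusted p was 7.04e-04. MMP16 had lower levels, 1.17, 2.05 and 1.497 CPM against 0.665, 0.845 and 1.08 CPM, again without overlap (log2 fold change -0.87, standard error 0.283, adjusted p = 0.144, and 0.0188 with the block). MMP24, which is best known from the nervous system, pointed the other way at 8.54, 14.3 and 15.3 CPM against 14.1, 21.0 and 21.7 CPM. Its groups overlapped because replicate 1 was the lowest library of both groups, while each same-numbered pair was higher in the Ptc+-labelled library, by 0.73, 0.56 and 0.51 (log2). The log2 fold change of MMP24 was 0.57 (standard error 0.228) and its adjusted p went from 0.236 to 6.03e-05 once the block was included, while the value was 0.35 when parental-labelled replicate 1 was left out. MMP24-AS1 covers 18.5% of the MMP24 exon bases on the opposite strand and stood at 0.19 (adjusted p = 0.407). The 10 nearest tested neighbours of MMP24 had a median of 0.03 (range -0.62 to 0.88). Of these neighbours 9 lay above 0 and 1 was called. MMP15 and MMP17 stood at 0.15 (adjusted p = 0.539) and 0.09 (0.893). MMP2, the gelatinase that MMP14 activates, had 7.69 ± 1.56 and 8.60 ± 2.48 CPM (SD, n = 3 each) and overlapping groups, at 0.16 (adjusted p = 0.776).

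No ADAM gene was called by edgeR, DESeq2 or limma-voom without the block, and 1 of the 11 tested, ADAM9, had an unadjusted p under 0.05 in the edgeR fit. ADAM9, a widely expressed sheddase, measured 117, 124 and 123.5 CPM in the parental-labelled libraries and 137.5, 152 and 151 CPM in the others. The groups did not overlap and replicate 1 was the lowest of each, with a log2 fold change of 0.27 (SE 0.0747, adjusted p = 0.0897, and 3.34e-04 with the replicate block). ADAM10, the main sheddase of Notch and cadherins, had 118, 153 and 152 CPM against 141, 159 and 167 CPM, where parental-labelled replicate 1 stood well below the other 5 libraries. It passed with the block (adjusted p = 0.0340) and not without (0.606), at 0.14. In the fit without the block this value was 0.03 when parental-labelled replicate 1 was left out and 0.08 when Ptc+-labelled replicate 3 was. ADAM17, which releases TNF and ligands of the EGF receptor, was level at 80.8 ± 5.09 and 80.3 ± 4.34 CPM (SD, n = 3 each), with a log2 fold change of -0.01 (SE 0.0804, adjusted p = 0.973). Of the exon bases of ADAM17, 24.1% are also covered by IAH1 on the opposite strand. ADAM15 stood at 140.2 ± 14.6 and 149 ± 8.33 CPM (log2 fold change 0.09, adjusted p = 0.700). ADAM22, ADAM23 and ADAM11 have no working catalytic site and serve as adhesion proteins and as receptors for secreted LGI proteins, mainly in neurons. ADAM23 was at 15.6 ± 3.49 and 18.6 ± 1.90 CPM, or 0.25 on the log2 scale (adjusted p = 0.493, and 0.0322 with the block) and 0.08 when parental-labelled replicate 1 was left out, and ADAM22 and ADAM11 stood at -0.07 and -0.01. ADAM8, ADAM19, ADAM21 and ADAM28 ranged from -0.33 to 0.26 and none of them passed either fit.

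TIMP1 and TIMP2 passed with the replicate block alone, and TIMP3, the most abundant inhibitor, passed in neither fit. TIMP2, which inhibits MMP2 and also bridges it to MMP14 for activation, measured 114, 95.1 and 100.1 CPM in the parental-labelled libraries and 119.9, 121 and 122 CPM in the Ptc+-labelled ones. Its groups did not overlap, with a log2 fold change of 0.23 (SE 0.0841, adjusted p = 0.194, and 0.00464 with the block), and the adjusted p was 0.0485 without parental-labelled replicate 1. TIMP1 had 62.5, 50.9 and 57.0 CPM against 71.9, 59.4 and 64.8 CPM. The groups of TIMP1 overlapped, but all 3 same-numbered pairs were higher in the Ptc+-labelled library, by 0.18 to 0.22 (log2), and its adjusted p was 0.357 without and 0.00738 with the block, at 0.20. Left-out libraries moved the TIMP1 value to 0.13 (parental-labelled replicate 2) and 0.12 (Ptc+-labelled replicate 1). TIMP3 measured 1027, 871 and 900.3 CPM against 879, 884 and 888.5 CPM, a log2 fold change of -0.08 (SE 0.0854, adjusted p = 0.728). Here parental-labelled replicate 1 was the highest library and the others lay within a narrow range. TIMP4 had 0 counts in the parental-labelled libraries and 3, 0 and 3 in the others, which is too few to compare.

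**Figure D5:**
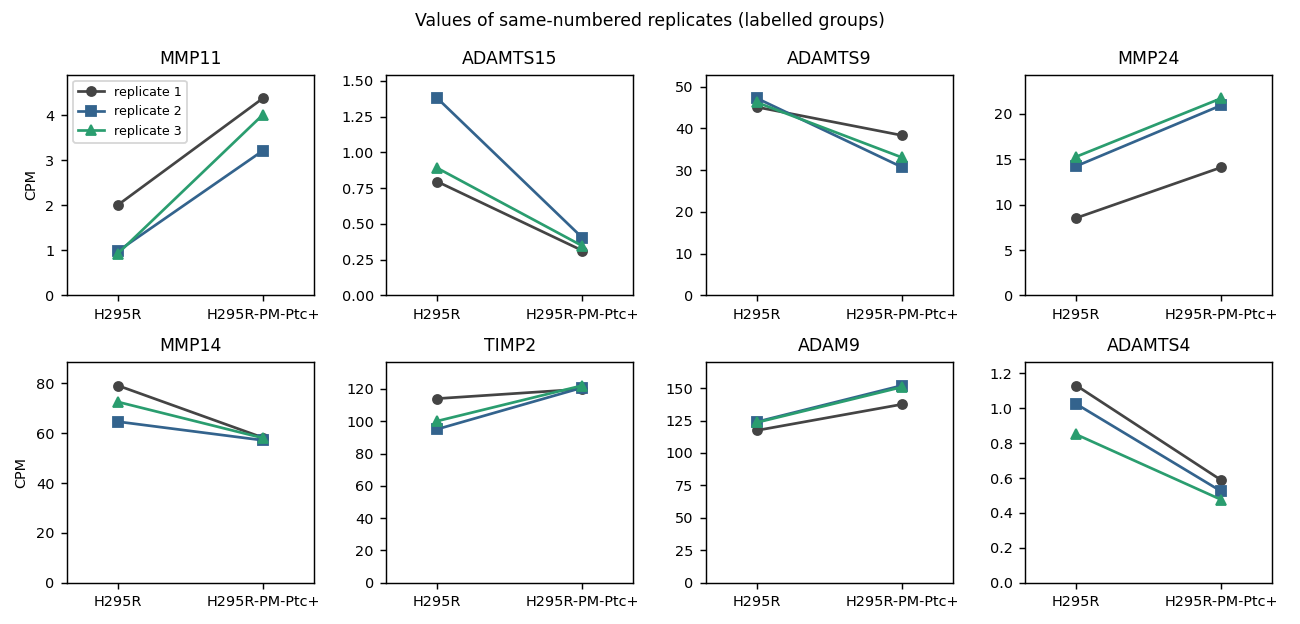
CPM of 8 members in the 3 parental-labelled libraries and the 3 Ptc+-labelled ones, with lines that join libraries of the same replicate number and axes that start at 0. MMP11 and MMP24 are higher and ADAMTS15, ADAMTS9, MMP14 and ADAMTS4 lower in the second group in all 3 pairs, and replicate 1 of MMP24 lies below replicates 2 and 3 in both groups.

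Genes that activate, hold or are cut by these proteases were read from the same fit, as 108 genes in 6 lists of which 79 were tested. Of these 79, 8 were higher and 3 lower in the Ptc+-labelled libraries with an adjusted p under 0.05, against 2.42% and 1.32% of all tested genes, and 27 and 9 with the replicate block, against 12.1% and 10.4%. Their median log2 fold change was 0.14.

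Among 14 tested activators and inhibitors of MMPs, 3 were called, all higher. PCSK6, a furin-like convertase, was at 19.1 ± 0.275 CPM in the parental-labelled libraries and 28.8 ± 2.53 in the others (SD, n = 3 each, log2 fold change 0.59, edgeR adjusted p = 0.00845), and TFPI2, a matrix-bound serine protease inhibitor, at 3.25 ± 0.548 and 5.51 ± 0.478 CPM (0.76, adjusted p = 0.0396). FURIN, RECK (a membrane-anchored MMP inhibitor) and PLAU, the gene of urokinase, stood at -0.07, -0.05 and -0.19 with adjusted p-values of 0.813, 0.797 and 0.845. Of 16 other tested pericellular proteases, the lysosomal cathepsin CTSB (0.72, adjusted p = 0.00426) and the endothelin-converting enzyme ECE1 (0.38, 0.0417) were higher and the serine protease HTRA1 (-0.34, 0.0488) was lower.

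Of the 13 tested partners of ADAMs, TSPAN5 alone was called. This tetraspanin of the TspanC8 group, which escorts ADAM10 to the cell surface, measured 26.7 ± 1.22 CPM in the parental-labelled libraries and 14.2 ± 0.5998 in the Ptc+-labelled ones (log2 fold change -0.91, standard error 0.0843, adjusted p = 8.75e-04). RHBDF1 and RHBDF2, the iRhom partners of ADAM17, stood at 0.10 (adjusted p = 0.885) and 0.97 (0.313). Of 21 tested shedding substrates EPHA2, a receptor that MMP14 can cut, was called at 0.230 ± 0.117 and 1.08 ± 0.190 CPM (2.20, adjusted p = 0.0119). Of 11 tested ADAMTS substrates RELN (1.39, adjusted p = 0.00172) and COL3A1 (1.51, 1.31e-04) were higher and COL5A1 (-0.96, 0.00925) was lower. COL3A1 is also one of the fibroblast markers above. The calls of CTSB, TSPAN5, COL3A1, COL5A1 and RELN held with each library left out in turn. HTRA1 lost its call in each of these fits (adjusted p of 0.0622 to 0.204), TFPI2 and ECE1 in 5 of them (0.0571 to 0.155, holding without parental-labelled replicate 1, and 0.0567 to 0.192, holding without Ptc+-labelled replicate 1). PCSK6 lost it without parental-labelled replicate 3 (0.0544) and Ptc+-labelled replicates 2 (0.0519) and 3 (0.0561), and EPHA2 without parental-labelled replicate 2 (0.0624) and Ptc+-labelled replicates 2 (0.0554) and 3 (0.0561). The lists of partners were chosen with earlier results of these data known.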

How the data were processed

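Libraries of 3 replicates labelled H295R and 3 labelled H295R-PM-Ptc+ were sequenced in paired reads. The study names a stranded mRNA kit and the labels a total RNA kit, with polyA RNA extracted. STAR 2.4.0a was used by the authors to map reads to hg38, and featureCounts to assign read pairs to Ensembl gene names, with strand and with multiply mapped reads at their primary alignment. The featureCounts version differs between the study and the submitters' notes, and whether the strand setting (1) fitted the kit was not tested, so counts listed at 0 and genes that overlap on opposite strands are read with that limit. GAPDH held 77733 to 86145 counts per library. They deposited raw counts per library, without filter or normalization, and exon coordinates and lengths. Of these, 1 unnamed row, which held 0 counts, was left out.

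All genes entered the fit with edgeR 4.0.16 under R 4.3.3 (filterByExpr, TMM, glmQLFit, glmQLFTest, two-sided, group only), with Benjamini-Hochberg adjustment over all 16710 tested genes at 0.05, after a check on simulated counts. Standard errors come from the F statistic. Levels are CPM over TMM-scaled library sizes, per kilobase of exon on the primary chromosomes where genes are compared. Same-numbered libraries share a code in the labels. Their deviations from the group means correlated at 0.465, 0.280 and 0.201 for replicates 1, 2 and 3, against at most 0.134 for other pairs. Within a group these deviations are not independent of each other. Replicates 2 and 3 were less clearly paired than replicate 1, with 0.134 and 0.0985 when crossed. The replicate number is given as a block beside results that it changes. The alternatives were that block, DESeq2 1.42.0, limma-voom (limma 3.58.1), relative log expression size factors, no filter, a minimum of 10 counts in all libraries, and each library left out in turn. Replicates of 1 group differed by more than counting error (chi-square per gene of 5.56 or more), and replicate 1 stood apart in both groups. In the parental-labelled libraries the value was 25.8 and 21.4 for replicate 1 with 2 and 3, and 5.56 for 2 with 3. In the Ptc+-labelled ones it was 20.5, 17.7 and 9.47 in the same order.

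The members, lists and rule for naming genes were chosen with earlier results of these data known. Named are members with an adjusted p under 0.05 in either fit, those without overlap at an unadjusted p under 0.05, the 10 highest levels, and a fixed set of well-known members. Others follow in counts or by symbol. Promoter windows are from RefSeq. Python 3.11.15 with pandas 2.3.3 summarised the fits. A companion gene is not reported here.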

Additional observations from a re-analysis of the deposited data

How the results depend on the processing

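The same 3 members were called with DESeq2, limma-voom and size factors by relative log expression. With the replicate block 7 members were higher and 6 lower, and all 3 were among them. Without a filter on low counts there were 2 higher, with MMP24 (adjusted p = 0.0287), and 3 lower, with ADAMTS18 (0.0374). That fit held 59 members, and 3.59% of its 30966 genes were called in either direction. At least 10 counts in every library gave 1 higher and 1 lower, as ADAMTS15 was no longer tested. That fit held 28 members, and 3.09% of its genes were called. With each library left out in turn, 0 to 3 members were higher and 0 to 2 lower, where 1.28% to 4.75% of all genes were called in either direction. No member was called by edgeR without parental-labelled replicate 2, parental-labelled replicate 3 or Ptc+-labelled replicate 3, where 9, 10 and 8 had an unadjusted p under 0.05. The genes called in all also fell there, to 278, 219 and 257, from 624. For the companion genes, the block gave 27 higher and 9 lower, DESeq2 12 higher and 3 lower, and no filter 15 higher and 3 lower. Leaving out a library gave 4 to 12 higher and 2 lower. Of all genes, 22.5% were called with the block, 2.67% with DESeq2, 3.59% without a filter and 1.28% to 4.75% with a library left out.

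Among all 33 tested members, the log2 fold change of 8 changed sign in some fit that left out a library, and in none of the other settings. None of these 8 was called, and their ranges over such fits were -0.23 to 0.17 (ADAM11), -0.06 to 0.03 (ADAM17), -0.10 to 0.72 (ADAM21), -0.12 to 0.33 (ADAMTS13), -0.85 to 0.08 (ADAMTS19), -0.31 to 0.02 (ADAMTS3), -0.07 to 0.29 (MMP17) and -0.11 to 0.31 (MMP2). The block changed no other call among the named members than those given with it. The cause of these shifts was not tested. Depth limits the 26 members counted below the filter and the 10 listed at 0, and ADAMTS15, ADAMTS4 and MMP16 rest on few counts.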
